A study of Mus musculus with 20 samples.

Results

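The 10 genes described here encode transcription factors and RNA-binding proteins that establish or accompany pluripotency: Pou5f1 (the gene of Oct4), Sox2, Nanog, Klf4, Myc, Lin28a, Lin28b, Sall4, Gata4 and Sox17. They were chosen by name, matched by symbol to their Ensembl identifiers, and taken without an expression filter from the 57010 genes counted. All 10 were found. Their messenger RNA was measured by bulk RNA sequencing in 2 organs, liver and kidney, of male mice of the UM-HET3 stock, a genetically heterogeneous cross. The mice were 12 months old and carried subcutaneous osmotic minipumps for 28 days. Pumps of the 7c group released repsox, tranylcypromine, DZNep, forskolin, CHIR99021 and TTNPB at 0.1 mg/kg/day each and valproate at 1 mg/kg/day, whereas vehicle pumps held the DMSO and PEG300 solvent alone. Each tissue had 6 samples of 7c mice and 4 of vehicle mice, 20 samples in all, and each sample was RNA of a piece of whole organ rather than of sorted cells. Whether liver and kidney samples of the same number came from 1 mouse is not stated in the labels. The question was whether a cocktail used to reprogram cells chemically changed the endogenous reprogramming genes in these organs.

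Oct4, Sox2 and Nanog form the core circuit that holds embryonic stem cells in the pluripotent state, and somatic cells return to that state when Klf4 and Myc are supplied together with Oct4 and Sox2. Lin28a and Lin28b block maturation of the let-7 microRNAs, and Sall4 is a zinc-finger partner of Oct4 that is also made in fetal liver. Chemical reprogramming of fibroblasts is known to pass through an extraembryonic endoderm-like state marked by Gata4, Sox17 and Sall4. Several of these genes also have roles in adult organs. Klf4 acts in epithelium and endothelium, Myc in cell growth, Sox17 in endothelium, and Gata4 in sinusoidal endothelium, stellate cells and hepatocytes of the liver.

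Promoter sequences were available in the RefSeq promoter table for 6 of the 10 genes, namely Pou5f1, Nanog, Sox2, Klf4, Lin28a and Lin28b, as 8 windows of 300 bases around an annotated start, most of each window lying before it. Myc, Gata4, Sox17 and Sall4 had no entry. The table is built on GRCm38.p6, and each window was placed on GRCm39, the build of the deposited counts, by exact match. A window each of Klf4, Sox2 and Nanog is printed because these genes differ most in CpG content and cover a gene measured in every sample, one at 0 in all but 1 sample and one with a few counts in kidney. CpG dinucleotides are in capitals. The Klf4 window lies at chr4:55532426-55532725 on the minus strand, the Sox2 window at chr3:34703894-34704193 on the plus strand and the Nanog window, the first of 2, at chr6:122684198-122684497 on the plus strand.
Klf4: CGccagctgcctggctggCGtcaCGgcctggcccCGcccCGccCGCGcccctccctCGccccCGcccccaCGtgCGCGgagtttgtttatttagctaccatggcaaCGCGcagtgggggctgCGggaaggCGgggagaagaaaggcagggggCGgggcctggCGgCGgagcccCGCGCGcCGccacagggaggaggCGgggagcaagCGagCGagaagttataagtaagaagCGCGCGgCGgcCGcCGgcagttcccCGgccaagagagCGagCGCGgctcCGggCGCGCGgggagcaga
Sox2: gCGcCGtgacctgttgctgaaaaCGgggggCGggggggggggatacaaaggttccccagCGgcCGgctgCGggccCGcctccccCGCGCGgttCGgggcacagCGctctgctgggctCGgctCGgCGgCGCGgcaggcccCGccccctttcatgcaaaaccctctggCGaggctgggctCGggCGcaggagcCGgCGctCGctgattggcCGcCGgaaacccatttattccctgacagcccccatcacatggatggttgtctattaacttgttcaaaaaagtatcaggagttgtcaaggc
Nanog: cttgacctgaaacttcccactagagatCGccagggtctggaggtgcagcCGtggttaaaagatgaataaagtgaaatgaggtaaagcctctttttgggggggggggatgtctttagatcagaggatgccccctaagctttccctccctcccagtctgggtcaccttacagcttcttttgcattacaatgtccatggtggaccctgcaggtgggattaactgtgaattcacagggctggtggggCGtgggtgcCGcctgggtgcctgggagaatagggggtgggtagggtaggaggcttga

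The Klf4 window held 40 CpG, more than 96.1% of the 32851 promoter windows in the table, and its ratio of observed to expected CpG was 0.974. The Sox2 window held 27, more than 84.5% of windows. The Nanog window held 4, below the median of 7 over all windows, and its second window also held 4. Pou5f1 had 11 and 6 in its 2 windows, Lin28a 10 and Lin28b 8. The pair of CpG-rich genes differed in level, with Sox2 at 0 counts in 19 of 20 samples and Klf4 measured in all 20.

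**Figure D1:**
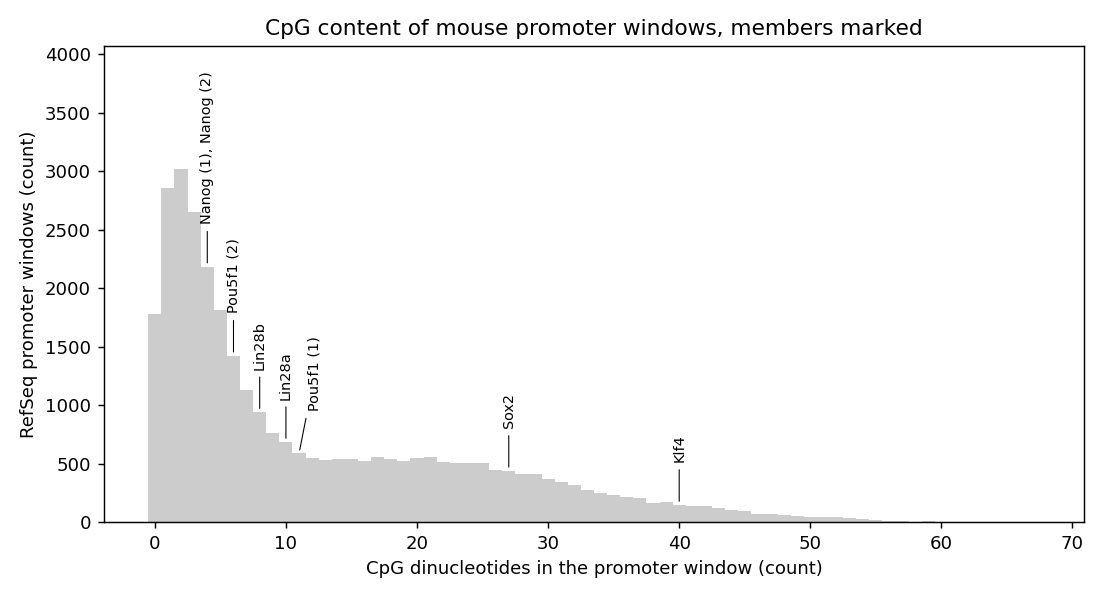
Number of CpG dinucleotides in each RefSeq mouse promoter window of 300 bases (x axis) against the number of windows (y axis), with the 8 windows of 6 of the genes marked and numbered where a gene has 2. The windows of Klf4 (40 CpG) and Sox2 (27) lie in the upper tail, and the other 6 hold between 4 and 11.

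Short motifs were searched in these windows on both strands, first those of pathways on which compounds of the cocktail act and then those of the factors themselves and their relatives. The cAMP response element TGACGTCA was in none of the 8 windows and in 1.79% of all windows, and the TCF/LEF motif ATCAAAG was in none and in 3.73%. The nuclear receptor half-site AGGTCA was in the first Pou5f1 window, the first Nanog window and the Sox2 window, and in 16.3% of all windows. The octamer ATGCAAAT was in none and in 1.74%, and the E-box CACGTG was in the Klf4 and Lin28b windows and in 7.15%. The GC box GGGCGG, an element of the kind bound by Sp and KLF factors, occurred 4 times in the Klf4 window, 2 times in that of Sox2 and 1 time each in the first window of Pou5f1 and that of Lin28a, and 35.7% of all windows held at least 1. These are exact matches of letters only, so a site that differs from a motif by a base was not counted.

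Total counts per sample were 28383359 to 34153084 in liver and 27855849 to 64872451 in kidney, and each 7c liver had a smaller total than each vehicle liver. Levels are given as CPM, the counts scaled to a common library size with TMM factors of the tissue. A count of 3, taken as the floor of what a library can show, was worth 0.0878 to 0.106 CPM in liver and 0.0462 to 0.108 CPM in kidney on the unscaled totals. Floors cover counting error only. Of counts between 1 and 10, 75.5% to 82% were even in each liver and 75.9% to 81.6% in each kidney, against 51.1% to 57.8% of counts above 1000, so a low count may stand for fewer fragments than its number. The Klf4 count was even in all 20 samples. The 10 hepatocyte markers summed to 86470 to 118500 CPM in livers, and the 10 kidney tubule and podocyte markers to 37080 to 72590 CPM in kidneys and no more than 1.762 CPM in livers. The 7c liver sample 6 stood apart with 661 CPM of summed skeletal muscle markers, against 0.393 to 1.79 CPM in the other 9 livers. Of the kidneys, 7c sample 5 and vehicle sample 2 stood apart with 72590 and 63740 CPM of tubule and podocyte markers, against 50790 CPM or less in the other 8. Over all genes, 7c against vehicle called 1 gene in liver, Zfp949, at -1.29 on the log2 scale with adjusted p = 0.00591 (edgeR), named after its value was seen. In kidney edgeR called 0 genes, with 463 at an unadjusted p under 0.05, DESeq2 called 18 and limma-voom 2.

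The core pluripotency genes were at or near 0 in both organs. Pou5f1 had 1 count in 7c liver sample 3, 1 count in 7c kidney sample 4 and 0 in the other 18 samples. Sox2 had 4 counts in vehicle kidney sample 1 and 0 in the other 19. Nanog, the homeobox factor of the core circuit, had 0 counts in all 10 livers. In kidney, Nanog had 4, 0, 0 and 10 counts in vehicle samples 1 to 4 and 2, 2, 2, 0, 0 and 4 in 7c samples 1 to 6. The highest Nanog value, 0.349 CPM, was thus in a vehicle kidney, and the groups overlapped. Reads may be shared with processed copies of the genes elsewhere in the genome. The 7 Pou5f1 pseudogenes in the table had 34 counts in all, 30 of them from Pou5f1-rs11 in kidney, and the 2 Nanog pseudogenes had 0.

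The genes of the Lin28 axis were also near the floor. Lin28b had 0 counts in all 20 samples, which at a floor of 3 counts allows up to 0.0462 to 0.108 CPM depending on the library. Lin28a had 0 counts in all livers, and in kidney 0, 10, 0 and 0 counts in the vehicle samples and 4, 0, 0, 2, 2 and 0 in the 7c samples. One vehicle kidney therefore held more Lin28a counts than the 6 7c kidneys together, which had 8. Sall4 was the only one of these 6 genes with more than 1 count in liver. It had 0, 0, 0 and 10 counts in vehicle livers and 0, 0, 0, 4, 0 and 12 in 7c livers. In kidney, Sall4 had 0, 10, 0 and 5 counts with vehicle and 10, 0, 0, 4, 0 and 2 with 7c. The 12 counts came from the 7c liver with the skeletal muscle markers, and without it the mean Sall4 level of 7c livers was 0.0271 CPM in place of 0.0948. The part of muscle RNA in that count was not tested.

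**Figure D2:**
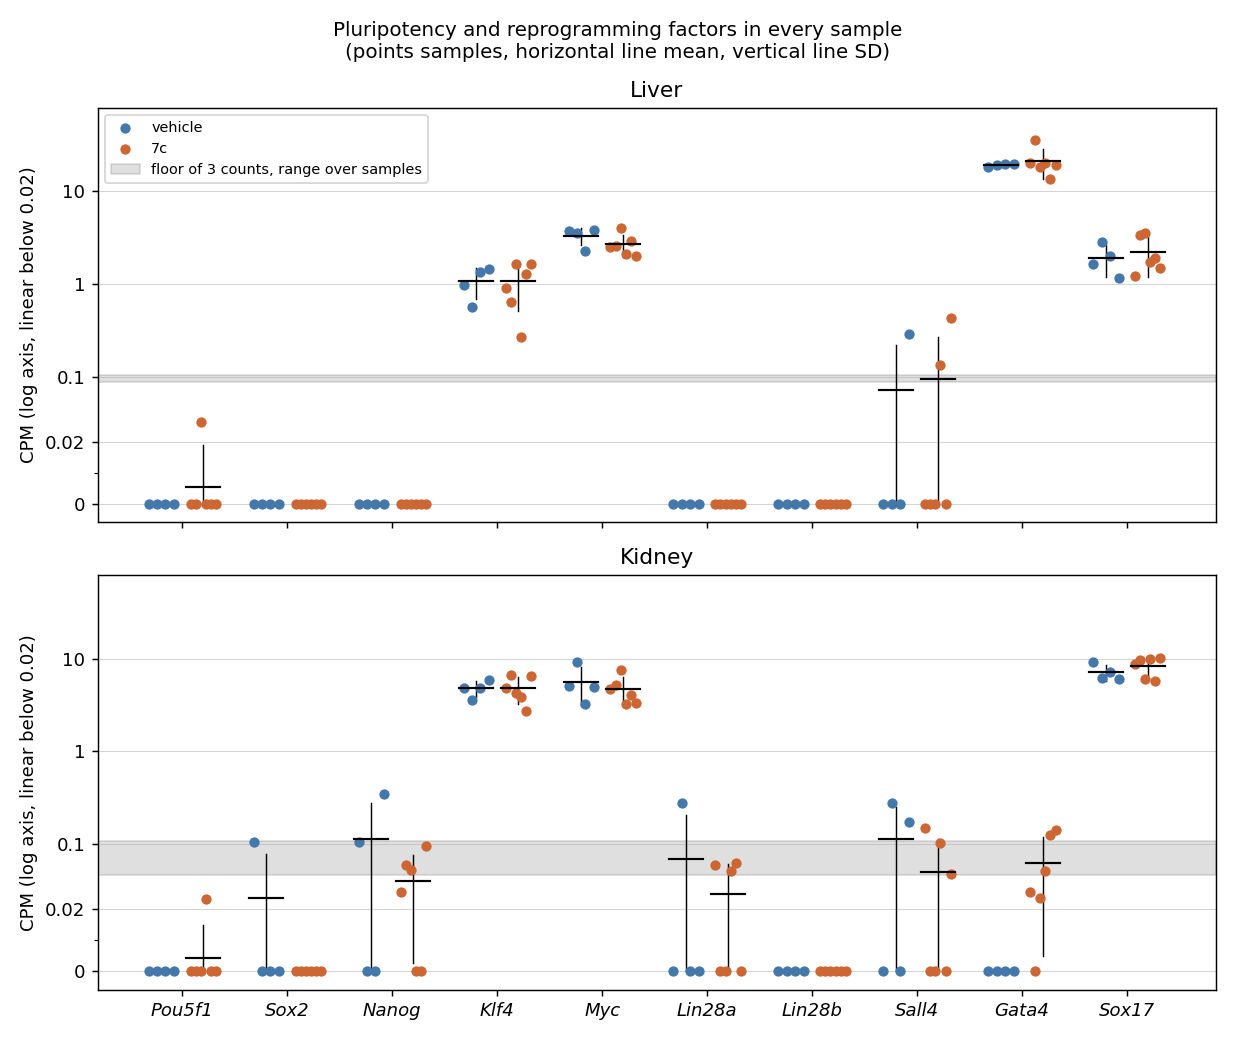
CPM of the 10 genes (x axis) in every liver (upper panel) and kidney (lower panel) sample, on a log axis that is linear below 0.02. Points are samples, blue for vehicle (n = 4) and orange for 7c (n = 6), with the mean as a horizontal line, the SD as a vertical line and the value of 3 counts as a grey band. Klf4, Myc and Sox17 lie above the band in all 20 samples, Gata4 does so in the 10 livers, and each value of the other 6 genes is 0.433 CPM or less.

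None of these 6 genes reached 10 counts in 50% of the samples of a tissue, the filter for the test across genes. Their 7c and vehicle CPM were compared with a two-sided exact permutation test over all 210 splits of 10 samples, which cannot give a p below 0.00476. With Gata4 in kidney, 8 such tests had a nonzero value to compare. For the 7 tests on these genes p was 0.367 to 1. In 3 of them, Pou5f1 in either organ and Sox2 in kidney, only 1 sample held a count, so that p could take no value under 0.4 and those tests could not pass. Absence cannot be read from these values, only that no difference was detectable at this depth.

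The genes lie, on GRCm39, at chr17:35816789-35822274 (Pou5f1), chr6:122679780-122691601 (Nanog), chr3:34704554-34706610 (Sox2), chr4:133730641-133746173 (Lin28a), chr10:45252646-45362557 (Lin28b), chr2:168590252-168609863 (Sall4), chr4:55527139-55532528 (Klf4), chr15:61857227-61862223 (Myc), chr14:63436362-63509141 (Gata4) and chr1:4561151-4567784 (Sox17). In GENCODE vM39 no exon base of the 10 genes was shared with another gene on the same strand. Sox2 overlaps Sox2ot, a long noncoding gene of the same strand that shares none of its exon bases and had 252 counts in kidney and 0 in liver. Antisense genes covered 59.9% of the exon bases of Sox2, 19% of Sox17, 17.8% of Nanog, 14.1% of Pou5f1 and 11% of Sall4. The libraries were made with a strand-marking kit, but the strand setting of the counting is not given in the sources used here. The antisense genes over the exons of Sox2, Nanog and Myc, and a second one over 34 bases of Pou5f1, were not analysed here. Those analysed, over Pou5f1, Lin28a, Sall4 and Sox17, had 0 to 3 counts per tissue in all.

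4 genes passed the filter in liver, namely Klf4, Myc, Gata4 and Sox17, and 3 in kidney, the same without Gata4. 7c called 0 of the 4 in liver and 0 of the 3 in kidney by edgeR's quasi-likelihood test at an adjusted p under 0.05, against a background of 0.00666% of the 15012 genes tested in liver and 0% of the 17749 tested in kidney. At an unadjusted p under 0.05 the counts of members were also 0 and 0, against 3.76% and 2.61% of genes tested. The limma-voom and DESeq2 fits called 0 of them too, and with no filter edgeR called 0 of the 6 members with a count in liver and 0 of the 9 with a count in kidney, against 0.0152% of genes in liver and 0.00923% in kidney. The 7c and vehicle samples overlapped for all of these genes, whereas they did not overlap for 0.719% of genes tested in liver and 0.716% in kidney. A p that misses the threshold does not show equal levels, and the intervals below give the sizes of change that these samples could not tell apart from 0.

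Klf4, the zinc-finger reprogramming factor, had 0.989, 0.573, 1.36 and 1.46 CPM in vehicle livers, and in 7c livers 0.271 at the lowest, 1.11 at the median and 1.66 at the highest. The 7c range enclosed the vehicle range. Its log2 fold change was -0.03 (SE 0.494, approximate 95% interval -0.999 to 0.939, adjusted p = 1). In kidney Klf4 had 4.81, 3.56, 4.82 and 5.87 CPM with vehicle and 2.75, 4.53 and 6.72 as lowest, median and highest with 7c. The log2 fold change was 0.02 (SE 0.251, interval -0.48 to 0.51, adjusted p = 0.997). The counts behind the liver values were only 8 to 50, and the sign of that estimate turned when any of 5 single livers was left out, as given under the processing.

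Myc, the growth-promoting basic helix-loop-helix factor, had 3.76, 3.55, 2.27 and 3.80 CPM in vehicle livers. In 7c livers it had 2.02 at the lowest, 2.53 at the median and 3.99 at the highest, and 2 of the 6 lay below the vehicle range and 1 above it. The log2 fold change was -0.32 (SE 0.257, interval -0.82 to 0.19, adjusted p = 1). Vehicle kidneys had 5.07, 9.13, 3.21 and 4.89 CPM of Myc, and 7c kidneys 3.21, 4.41 and 7.56 as lowest, median and highest. Here the log2 fold change was -0.25 (SE 0.303, interval -0.85 to 0.34, adjusted p = 0.997). That value rested on the vehicle kidney with 9.13 CPM, without which it was 0.10. This was vehicle sample 2, with the high tubule and podocyte markers. The other kidney of that kind, 7c sample 5, held the lowest Klf4 and Sox17 of the 7c kidneys, and without it the log2 fold changes were 0.13 for Klf4, -0.21 for Myc and 0.3186 for Sox17. The part of the makeup of these samples in the values was not tested.

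Sox17, a SRY-box factor of endoderm and arterial endothelium, had 1.65, 2.87, 2.02 and 1.17 CPM in vehicle livers and 1.21, 1.82 and 3.56 as lowest, median and highest in 7c livers. The log2 fold change was 0.20 (SE 0.376, interval -0.54 to 0.94, adjusted p = 1), and it ranged from 0.0162 without 7c sample 3 to 0.4573 without vehicle sample 2. Kidneys of vehicle mice had 9.21, 6.18, 7.20 and 6.00 CPM, and those of 7c mice 5.76, 9.21 and 10.2 as lowest, median and highest. 3 of the 6 7c kidneys lay above the vehicle range and 1 below it. The log2 fold change was 0.23 (SE 0.208, interval -0.18 to 0.64, adjusted p = 0.997), and 0.377 without vehicle sample 1. All 15 endothelial markers had counts in each group. Their summed level was 299.5 to 334.5 CPM in vehicle livers and 204.4 to 389.2 in 7c livers, and 456.9 to 574.2 CPM in vehicle kidneys and 480.3 to 616.2 in 7c kidneys. In bulk tissue, a change in the number of cells that make a transcript and a change in its level per cell cannot be told apart.

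Gata4, a zinc-finger factor of liver and heart, had 18.2, 19.2, 19.5 and 19.9 CPM in vehicle livers. In 7c livers it had 13.6 at the lowest, 19.7 at the median and 36.1 at the highest. The highest, 1123 counts in 7c liver sample 2, lay far above the next at 20.1 CPM. The log2 fold change was 0.15 (SE 0.208, interval -0.26 to 0.55, adjusted p = 1), and without that sample it was -0.07. The summed level of 12 stellate and mesenchymal markers was 279.4 to 381.7 CPM in vehicle livers and 265.3 to 396.4 in 7c livers. The same liver had the highest endothelial sum of the 10, at 389.2 CPM. Its hepatocyte sum was the lowest, at 86470 CPM, but vehicle liver sample 2 was close at 86650 CPM with 19.2 CPM of Gata4. Its stellate and mesenchymal sum, 359.4 CPM, lay inside the vehicle range. The part of its cell makeup in the Gata4 value was not tested.

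Gata4 in kidney was the member whose 7c and vehicle samples were most unlike among those below the filter. It had 0 counts in all 4 vehicle kidneys and 2, 0, 1, 2, 4 and 6 counts in the 7c kidneys, so 5 of 6 held at least 1 count, 15 in all. Of these, 2 samples exceeded the floor of 3 counts, at 0.125 and 0.144 CPM. The exact permutation p was 0.0619, and it was the lowest of the 8 tests. With no filter, edgeR gave an unadjusted p of 0.0263 and an adjusted p of 0.777 over 32519 genes. At this size the result was not past the threshold. Beside this, the summed hepatocyte markers were 2204 to 2948 CPM in 7c kidneys and 2503 to 2996 in vehicle kidneys, but most of that sum was Cyp2e1, a cytochrome P450 at 2840 TPM in kidney, so it does not measure hepatocyte RNA there. Albumin, Alb, had 10.7 TPM in 7c kidneys and 22.2 in vehicle kidneys, a log2 fold change of -1.08 (unadjusted p = 0.00541, adjusted p = 0.997, edgeR). Of the 10 markers 2 had a positive log2 fold change, and the log2 fold change of Cps1, the mitochondrial urea cycle enzyme, was -2.98 (unadjusted p = 0.00195, adjusted p = 0.997, edgeR). Adipocyte markers had a summed level of 60.2 to 164.5 CPM in 7c kidneys and 44.9 to 52.8 CPM in vehicle kidneys. All 8 of these markers had positive log2 fold changes, with a median of 2.13. By edgeR's quasi-likelihood test none of the 8 was called, and 7 of them had an unadjusted p under 0.05, against 2.61% of genes tested. The authors' own edgeR analysis listed 1 of the 8, Cidec, as raised by 7c in kidney. The part of hepatocyte RNA or of adjoining fat in any kidney value given here was not tested.

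The effect of 7c was also compared between the organs, as the kidney log2 fold change minus that of liver, over 14163 genes. Of the 3 members tested 0 were called, against 0.00706% of genes tested, which was 1 gene, Ces1c, named after its value was seen (-2.54, SE 0.364, adjusted p = 0.00947, edgeR). With same-numbered liver and kidney samples of a treatment joined by a block, 0 genes were called. At an unadjusted p under 0.05 there were 0 members, against 2.49% of genes, and with no filter 0 members were called, against 0.0323%. In that fit with no filter Gata4 had the smallest p of the members (3.784, unadjusted p = 0.00276, adjusted p = 0.616, edgeR). It rests on the few kidney counts given above. The differences were 0.06 for Klf4 (interval -0.99 to 1.10), 0.07 for Myc (interval -0.73 to 0.87) and 0.05 for Sox17 (interval -0.78 to 0.88), each with adjusted p = 1. The interval of Klf4 spans about 1 log2 unit in either direction, so equal responses of the organs are not shown.

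**Figure D3:**
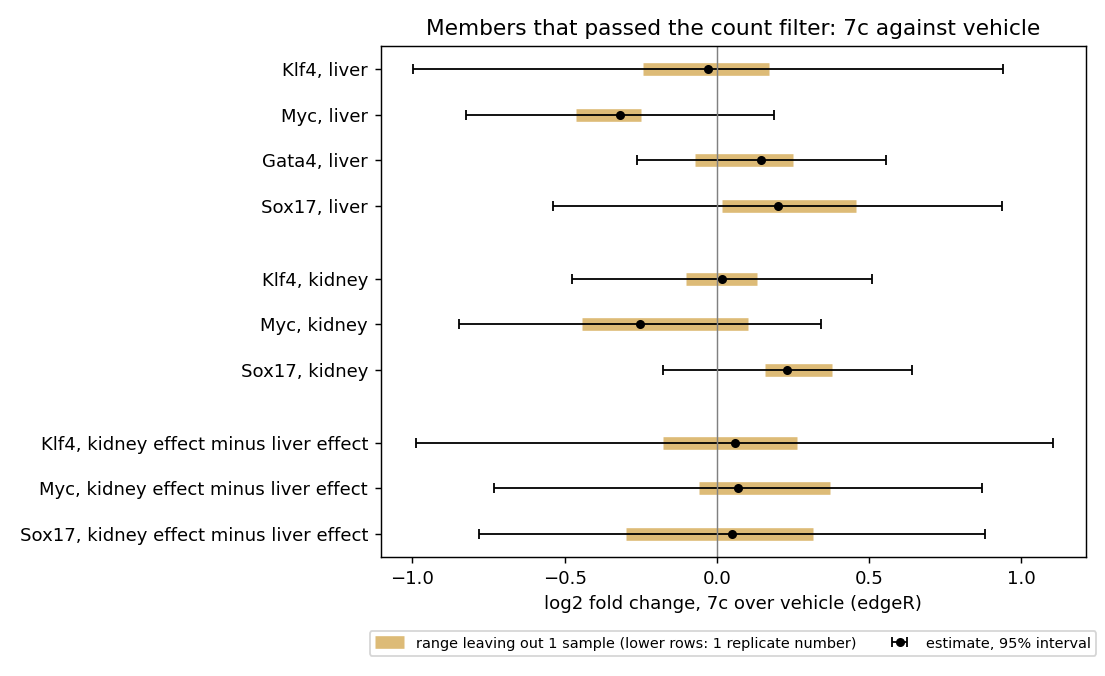
Log2 fold change of 7c over vehicle (x axis, edgeR) for each gene that passed the filter, in liver, in kidney and as the kidney effect minus the liver effect. Black points and bars are estimates with approximate 95% intervals, and wide tan bars span the estimates when 1 sample, or in the lower 3 lines both tissues of 1 replicate number, was left out. All 10 intervals include 0, and the tan bars of Klf4 cross 0 in each comparison.

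The organs themselves differed far more than the treatments. Kidney against liver, over all 20 samples and 18598 genes, called 3 of the 4 members tested, against 71.6% of genes tested, so a call here is what most genes had. At an unadjusted p under 0.05 it was again 3 of 4, against 73.4%. One of the 3, Gata4, passed the filter through the livers alone, so its call was set by the filter and is given as a description. The other two, Klf4 and Sox17, passed the filter in both organs and were higher in kidney, against 38.4% of genes, while 33.2% of genes were higher in liver. Klf4 was higher in kidney by 1.51 on the log2 scale (SE 0.273, adjusted p = 4.1e-05, edgeR), and on the TPM scale, in which counts are divided by exon length and scaled to a common total, its lowest kidney value of 2.59 lay above its highest liver value of 1.89. Sox17 was higher in kidney by 1.27 (SE 0.217, adjusted p = 2.04e-05, edgeR), and its TPM was 3.20 or more in kidney and 2.48 or less in liver. Gata4 had 376 to 1123 counts in livers and 0 to 6 in kidneys. Against the floor of 3 counts per library, its vehicle mean was at least 222-fold higher in liver. Myc differed by 0.14 (SE 0.207, interval -0.27 to 0.54, adjusted p = 0.567), and its TPM of 2.53 to 5.28 in liver overlapped that of 3.90 to 9.90 in kidney. The median of all genes in this contrast was 0.125, and RLE scaling moved it by 0.076. TPM does not carry the TMM factors, which were 1.128 to 1.292 in kidneys and 0.7592 to 0.8727 in livers. TPM values here and below therefore set kidney higher against liver than the test does. With no filter Nanog and Lin28a were also called higher in kidney, at adjusted p = 0.0121 and 0.0295 (edgeR), against 46.1% of 34032 genes, on 24 and 18 counts in all kidneys and 0 in all livers.

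Levels were compared between genes on the TPM scale. In liver, Gata4 stood first at 13.1 ± 4.33 TPM (SD, n = 10), then Myc at 3.93 ± 1.04, Sox17 at 1.44 ± 0.633 and Klf4 at 1.25 ± 0.544. The ranges of Sox17 and Klf4 overlapped, whereas the lowest Gata4 value, 8.57 TPM, was above the highest of Myc, 5.28. In kidney, Myc had 6.09 ± 2.11 TPM, Klf4 5.12 ± 1.55 and Sox17 4.95 ± 1.26, and the 3 overlapped. Gata4 in liver lay at the percentile 79.9 of genes with a count, and Klf4 at 52.8 in liver and 69.4 in kidney. Sall4 had 0.0544 TPM in liver and 0.0428 in kidney.

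Relatives of these genes filled the range around them. Among 16 other KLF genes, Klf15 and Klf9, both induced by glucocorticoids, had the highest TPM, at 78.0 and 35.5 in liver and 51.3 and 54.6 in kidney. Klf2, the flow-responsive endothelial factor, had 7.30 TPM in liver and 20.3 in kidney, several times the level of Klf4. Among 17 other SOX genes, the endothelial Sox18 had 7.66 and 20.9 TPM and Sox13 6.74 and 24.2, both above Sox17. Of the GATA genes and their cofactors, Zfpm1, which encodes the cofactor FOG1, had 39.0 TPM in liver and 5.41 in kidney, and Gata6 had 3.45 and 0.423, whereas Gata2 had 0.481 and 8.24. Gata4 and Gata6 were thus both higher in liver and Gata2 in kidney (log2 difference 3.58, adjusted p = 2.41e-10, edgeR). Sall1, a kidney development gene of the Sall4 family, had 13.9 TPM in liver and 26.8 in kidney, and Pou3f3, a POU factor of the nephron, had 0 counts in liver and 35.2 TPM in kidney. In kidney Pou5f1 and Sall4 thus lay far below both of these relatives, and in liver below Sall1.

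**Figure D4:**
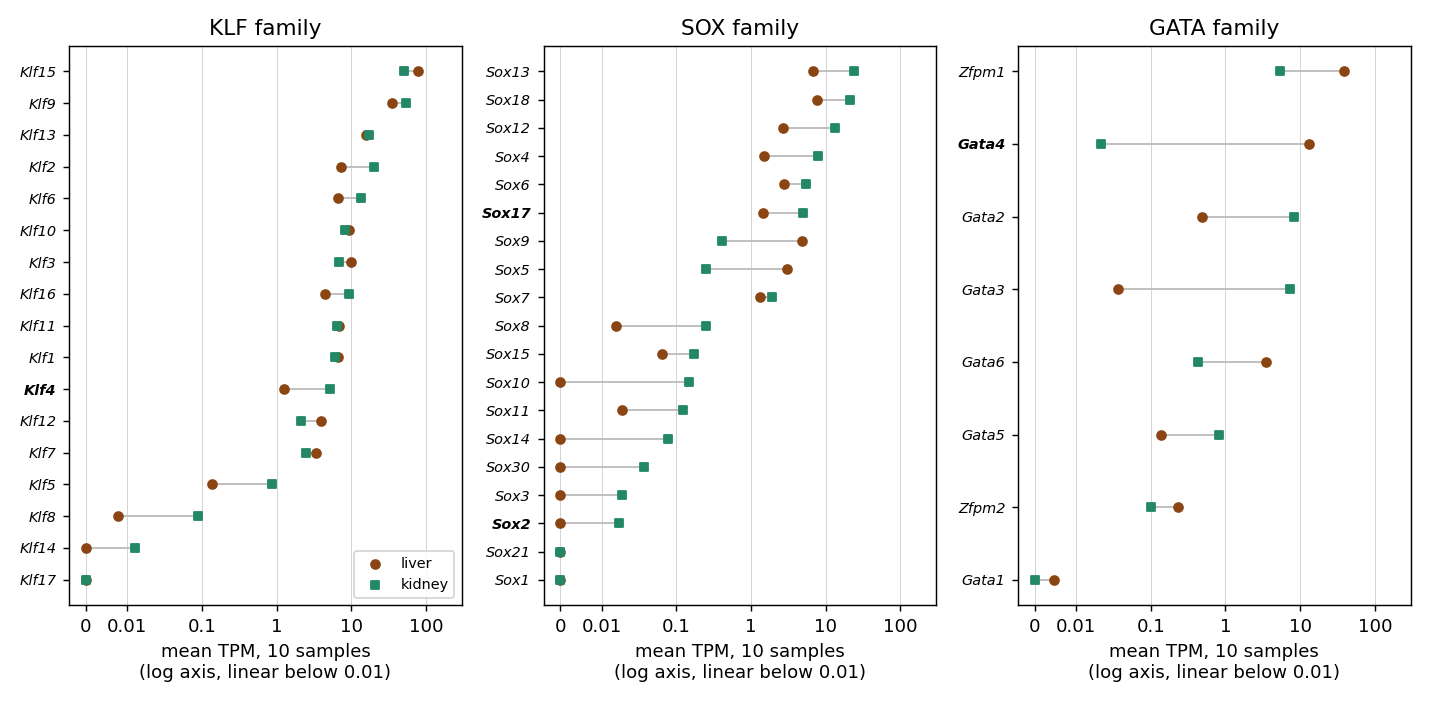
Mean TPM over 10 samples (x axis, log scale that is linear below 0.01) of the KLF, SOX and GATA family genes (y axis), with brown circles for liver and green squares for kidney and the genes described here in bold. Klf4 and Sox17 lie at 1 to 6 TPM with the kidney value to the right, Gata4 spans from 13.1 TPM in liver to 0.0216 in kidney, and Sox2 lies at or near 0 in both.

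The wider network of each gene was read from lists of related genes. By edgeR's quasi-likelihood test 7c called 0 genes of these lists in liver, in kidney or in the difference between the organs. The list of pluripotency genes beyond the members had 30 entries, of which 8 passed the filter in liver and 9 in kidney. The markers Zfp42, Fgf4, Cripto, Eras and Lefty2 had 0 counts in all 20 samples. Those with the highest levels have known uses in adult organs. Tfcp2l1, a collecting duct factor, had 3.20 TPM in liver and 68.5 in kidney, and Nr5a2, the liver receptor homologue, had 26.0 in liver and 0.0674 in kidney. The median log2 fold change of this list was -0.23 in liver and 0.12 in kidney, against 0.002 and -0.006 over all genes tested. Nr5a2 in liver (-0.29, unadjusted p = 0.0179) and Klf2 in kidney (0.60, unadjusted p = 0.0165) had the smallest p, and adjusted p was 1 and 0.997 (edgeR).

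Genes of the 2-cell stage embryo, whose activity marks a totipotent-like state, had next to no counts. Of 7 matched, Zscan4c had 2 counts in liver, Duxf3 had 2 in kidney and the other 5 had 0. The extraembryonic endoderm list, which bears on the intermediate state of chemical reprogramming, had 16 of 17 genes tested in each organ. Its median log2 fold change was -0.01 in liver and -0.04 in kidney. The keratins Krt8 and Krt18 had the highest levels, at 602 and 463 TPM in liver, and Afp, the fetal albumin relative, had 4.10 TPM in liver with a log2 fold change of 0.48 (SE 0.246, unadjusted p = 0.071, adjusted p = 1, edgeR). Dab2, an endocytic adaptor, had the smallest p in kidney, at 0.234 with a log2 fold change of -0.15.

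Of the Lin28 and let-7 genes, 12 were tested in liver and 15 in kidney, and their medians were -0.06 and -0.08. Drosha and Xpo5, which cut and export microRNA precursors, had log2 fold changes of -0.08 and -0.04 in liver and -0.12 and -0.09 in kidney. Lncppara, the host transcript of let-7b, had the smallest p in liver, at -0.90 on the log2 scale (unadjusted p = 0.061, adjusted p = 1, edgeR). The MYC partners had medians of 0.03 in liver and -0.14 in kidney with 11 and 12 tested. Mlxipl, the carbohydrate-responsive factor ChREBP, was the most abundant at 205 and 122 TPM. All 20 MYC targets were tested in both organs, with medians of -0.04 and 0.04. Odc1, the polyamine enzyme and a classic Myc target, had a log2 fold change of 0.22 in liver and 0.23 in kidney, and Wdr43, a ribosome biogenesis gene, had the smallest p of the list in liver (-0.37, unadjusted p = 0.0346, adjusted p = 1, edgeR).

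In the families, median log2 fold changes in liver and kidney were 0.19 and -0.003 for KLF, -0.14 and -0.12 for SOX, 0.02 and 0.06 for GATA and -0.12 and 0.10 for SALL and POU genes. Pou2f1, the ubiquitous octamer factor Oct1, had -0.68 in liver (unadjusted p = 0.0267, adjusted p = 1, edgeR) and 0.09 in kidney. The 12 immediate early genes tested in liver, the group to which Myc and Klf4 are often assigned, had a median of -0.36 and 1 positive value, and the 14 in kidney a median of 0.10 with 8 positive values. Dusp1, a phosphatase induced by stress, had -0.96 in liver (unadjusted p = 0.00471), and Atf3, a stress-induced factor, had 1.17 in kidney (unadjusted p = 0.00731), with adjusted p of 1 and 0.997 (edgeR). Proliferation genes had medians of 0.22 in liver, with 8 of 12 positive, and 0.02 in kidney, with 9 of 15 positive. The most abundant of them, Pcna, the replication clamp, had -0.23 and -0.10. Leukocyte markers had medians of 0.35 and 0.17 with 0 called.

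**Figure D5:**
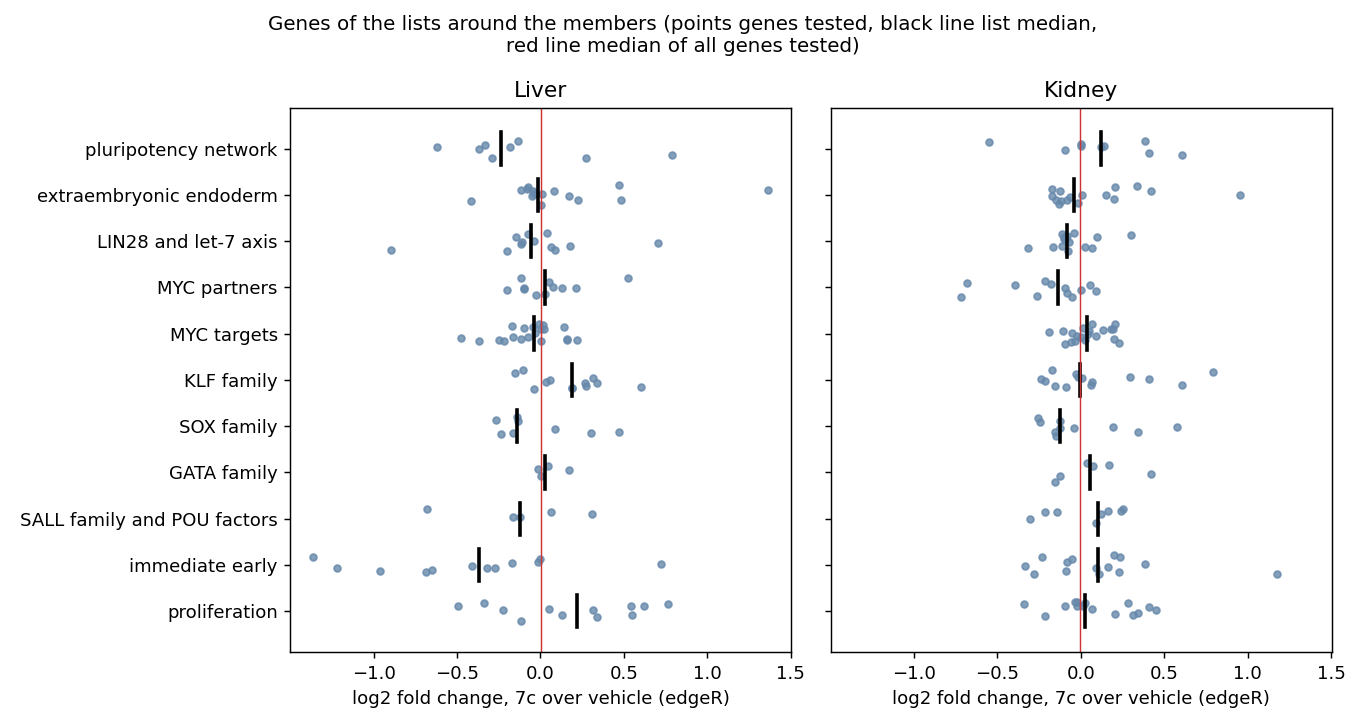
Log2 fold change of 7c over vehicle (x axis, edgeR) for each tested gene of 11 lists around the members (y axis), in liver and kidney. Points are genes, black lines list medians and the red line the median of all genes tested. List medians lie between -0.36 (immediate early, liver) and 0.22 (proliferation, liver), and 0 genes of these lists passed the threshold.

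Across the 10 samples of a tissue, after subtracting the treatment group means, the genes whose log2 CPM tracked one of the 4 measured genes most closely are given as a description, since the highest of many correlations over 10 samples is high by selection. In liver Klf4 was followed by Khdrbs3 (Pearson r = 0.98 over n = 10 samples), Myc by Man1c1 (r = 0.947), Gata4 by 6330403L08Rik (r = 0.933) and Sox17 by Ankrd29 (r = 0.984) and then Stab1 (r = 0.946), a scavenger receptor of liver sinusoidal endothelium. In kidney the closest were Tmem72 for Klf4 (r = 0.952), Mir9-2hg for Myc (r = 0.95), with the nucleolar protein gene Npm1 as the third (r = 0.928), and Rorb for Sox17 (r = 0.934). These were chosen among 15012 genes in liver and 17749 in kidney.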

How the data were processed

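Total RNA of liver and kidney was sequenced from poly(A)-selected, stranded libraries, and the authors mapped the reads to GRCm39 with STAR 2.7.11b and counted them per gene with featureCounts 2.0.6. The deposited values are raw counts per gene, 57010 genes by 20 samples, with 22978 genes at 0 in all. The strand setting, and whether both reads of a pair were counted, are not given in the sources used here. Groups came from the sample labels. The members and all gene lists were chosen with earlier results of these data known.

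Counts were tested with the quasi-likelihood F-test of edgeR 4.0.16 (R 4.3.3, TMM scaling, Benjamini-Hochberg adjustment over all genes tested, threshold 0.05) in each tissue, after dropping genes that did not reach 10 counts in 50% or more of the samples of that tissue. The difference of the 7c effect between organs and kidney against liver were fitted over all 20 samples. SE was taken from the fold change and its F, which gives approximate 95% intervals. TPM used exon lengths of GENCODE vM39. Genes below the filter were compared by exact permutation. The plan was to name from each list the pair of genes with the highest mean TPM, any gene past the threshold and the gene with the smallest p per tissue. Only some of these are given here, and other genes named were chosen after their values were seen. Samples are separate in the labels, which do not name the animals, so p-values measure the spread between samples. The fits over all 20 samples had no block, so a possible pairing of same-numbered liver and kidney samples was ignored in their p-values. The script was tested on simulated data. Alternatives were DESeq2 1.42.0, limma-voom (limma 3.58.1), other filters and scaling, a replicate block and leaving out samples.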

Additional observations from a re-analysis of the deposited data

Results flagged for a closer look

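A sample stood apart from the rest of its group in 8 of the 26 groups of gene and condition that held any count by Dixon's test at the 95% level. In 5 of these all other samples of the group were at 0, which sets the test's ratio to its maximum of 1 even for a single count, so the rate of 1 in 20 that chance gives does not apply to them. They were Pou5f1 in 7c kidney sample 4 (0.0259 CPM, 1 count), Pou5f1 in 7c liver sample 3 (0.0332 CPM, 1 count), Sox2 in vehicle kidney sample 1 (0.105 CPM, 4 counts), Lin28a in vehicle kidney sample 2 (0.278 CPM, 10 counts) and Sall4 in vehicle liver sample 4 (0.292 CPM, 10 counts). Sall4 in 7c liver sample 6 was 0.433 CPM with the next at 0.135, in the library that also held 661 CPM of skeletal muscle markers. Myc in vehicle liver sample 3 was the lowest of its group at 2.27 CPM, with the next at 3.55. Gata4 in 7c liver sample 2 was 36.1 CPM with the next at 20.1. The causes were not tested.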

How the results depend on the processing

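0 members were called for 7c in liver, in kidney or in the difference between organs under any of the 19, 19 and 18 alternatives run, and Klf4 and Sox17 kept their calls and directions in kidney against liver under all 18. Without a filter 5 members in place of 3 were called in kidney against liver. For all genes in liver, 1 by the reported fit, the count was 6 with DESeq2, 7 with the likelihood ratio test, 4 without a filter, 2 with filterByExpr, 0 with a replicate block, 4 with both tissues in 1 fit and 0 to 2 with a sample left out. For kidney, 0 by the reported fit, it was 18 with DESeq2, 2 with voom, 14 with the likelihood ratio test, 3 without a filter, 18 with both tissues in 1 fit, 2 with counts halved and rounded up (an alternative chosen after seeing the data) and 0 to 3 with a sample left out. For the difference between organs, 1 by the reported fit, it was 16 with DESeq2, 0 with voom, 22 with the likelihood ratio test, 11 without a filter, 4 with filterByExpr, 0 with the replicate block and 0 to 6 with both tissues of 1 replicate number left out.

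Several small estimates turned sign. With 1 sample left out, the 7c log2 fold change was 0.0162 to 0.4573 for Sox17 in liver without a change of sign, -0.24 to 0.17 for Klf4 in liver, -0.07 to 0.25 for Gata4 in liver (-0.07066 without 7c sample 2), -0.10 to 0.13 for Klf4 in kidney and -0.44 to 0.10 for Myc in kidney (0.10 without vehicle sample 2). With both tissues of 1 replicate number left out, the difference between organs was -0.18 to 0.26 for Klf4, -0.0574 to 0.37 for Myc and -0.30 to 0.31 for Sox17, and kidney against liver was -0.02572 to 0.19 for Myc, the lowest without vehicle number 2. With voom, Klf4 in kidney was -0.0052, Klf4 in liver -0.1825 and Gata4 in liver 0.08741. The cause was not tested. Within a tissue the replicate block joined same-numbered 7c and vehicle samples. These did not deviate together (0 of 4 pairs in liver and 1 of 4 in kidney had r over 0.1), so there the block is no paired design. Under this block Klf4 in liver was -0.44, Gata4 in liver 0.2413, Sox17 in liver 0.3014 and Myc in kidney -0.0855, and it changed no member's call. In the fits over both organs the replicate block instead joined the same-numbered liver and kidney samples of a treatment. Of the same-numbered liver and kidney samples, 8 of 10 correlated best with their own number, as a hint from the data only. A mean above 0.1 CPM was found in 16 of 40 pairs of gene and group, and in 14 to 17 with 1 replicate number of a treatment left out.

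Counts near the floor of 3 per library limit what can be said of the effect of 7c on Pou5f1, Nanog, Sox2, Lin28a, Lin28b and Sall4.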
